A study of Mus musculus with 6 samples.

Results

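Chemokines are small secreted proteins that steer migrating cells, and the genes of their family were followed here in the hippocampus of mice after traumatic brain injury (TBI). The members were the protein-coding genes whose symbol begins with Ccl, Cxcl, Ccr or Cxcr and a number, together with Cx3cl1, Xcl1, Xcr1 and the atypical receptors Ackr1 to Ackr4. This rule used no measured value and gave 59 of the 52550 genes listed in the data. Of these, 37 encode ligands (23 CC, 12 CXC and 2 of the CX3C and XC classes), 18 encode signalling receptors (11 CC and 7 CXC or XC) and 4 encode atypical receptors. In total, 42 of the 59 reached 10 or more counts in at least 1 library, and 5 were at 0 in all 6 libraries (Ccl1, Ccl26, Ccr1l1, Ccr8 and Cxcl15).

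RNA sequencing was carried out on hippocampi of male C57BL/6 mice (C57B6/J, 8 to 10 weeks old, by the study's methods), with 3 sham and 3 TBI animals and 1 library per mouse. TBI was a moderate controlled cortical impact on the right side, delivered by a driven piston through a craniotomy. Sham mice had the craniotomy, anesthesia with ketamine and xylazine and sutures without the impact, so they are operated and not naive animals. All tissue was taken 24 h after surgery, and the study's methods describe whole hippocampal tissue, exposed on both sides, without naming the side used for each library. The summed counts of the libraries (named Sham1, 2 and 3 and TBI1, 2 and 3) ranged from 31630936 to 41771872.

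Chemokines are grouped by the spacing of the cysteines near their amino end, into CC, CXC, CX3C and XC classes. They signal through membrane receptors coupled to inhibitory G proteins, whereas atypical receptors bind chemokines without that coupling and clear, carry or display them. In the brain, neurons, astrocytes, meninges and vessels make some chemokines all the time (Cx3cl1, Cxcl12, Cxcl14), and microglia, astrocytes and endothelium make others after injury or infection (Ccl2, Ccl3, Ccl4, Cxcl1, Cxcl10), which attract monocytes, neutrophils and T cells.

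Both groups held a library that stood apart. Gfap, an intermediate filament of astrocytes and a marker of their reaction to injury, had 162684 counts in the library labelled Sham2, against 25224 in Sham1, 24262 in Sham3 and 19251 to 60328 in the TBI libraries. The 8 markers of striatal neurons summed to 4765 counts per 1000000 (CPM) in TBI1 and to 151 to 231 CPM in the other 5 libraries. The 8 markers of hippocampal neurons, which check the tissue label, summed to 662 to 882 CPM in the sham group and 404 to 586 CPM in the TBI group. TBI1 was the lowest library for 7 of these 8, and those 7 (all but Wfs1, at 276 CPM in TBI1) summed to 133 CPM in TBI1 against 340 to 790 CPM in the other libraries, so most of them were low in TBI1. Whether the labels and the dissection of Sham2 and TBI1 are right was not tested, so each TBI-against-sham value holds for the libraries as labelled. For many members the value without Sham2 is given too, and for Ccl12, Ccl2 and Ackr3 also that without Sham2 and TBI1. In bulk tissue, fewer cells of a type and less RNA per cell cannot be told apart.

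No chemokine or receptor gene passed the test between the TBI and sham groups. A call required p below 0.05, an adjusted p below 0.1 and over 1.5-fold change in either direction in edgeR's quasi-likelihood test, with Benjamini-Hochberg adjustment over all 18795 genes tested. Of the 59 members 32 were abundant enough to be tested, and 0 of the 32 were called, where 0% of all genes tested were called. At an unadjusted p under 0.05 the count was also 0 of 32, against 4.29% of all genes (2.16% higher and 2.13% lower in TBI), and the smallest adjusted p of a member was 0.982. DESeq2 with its defaults called 0 members, against 0.163% of the genes with a count, but gave no p for Ccl3, Cxcl1 and Cxcl10 of the 32. It had 1 member at an unadjusted p under 0.05 (Cxcl3, with counts in Sham2 only), against 4.08% of the genes with a count. The mean was lower in TBI for 20 of the 32 members and higher for 12, against 48.6% of all genes lower. A log2 fold change under -1 was fitted for 5 members (Ccl12, Ccl2, Ccr1, Cxcl1 and Cxcl10), against 2.73% of all genes. The median log2 fold change (TBI over sham) of the 32 was -0.25, and that of all genes tested was 0.0091.

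Libraries of the same group differed widely in these genes. The highest of the 6 libraries was Sham2 for 17 of the 32 tested members, against 23.7% of all genes tested. The other libraries were highest for 2 (Sham1), 2 (Sham3), 3 (TBI1), 4 (TBI2) and 4 (TBI3) members, against 14.2%, 10.5%, 19.7%, 12.1% and 19.8% of all genes. Sham2 was also more than 2 times the mean of Sham1 and Sham3 for 17 of the 32, against 7.79% of all genes. Members with 10 or more counts numbered 34 in Sham2, 24 in Sham1 and 26 in Sham3, and 33, 32 and 25 in TBI1, TBI2 and TBI3.

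**Figure D1:**
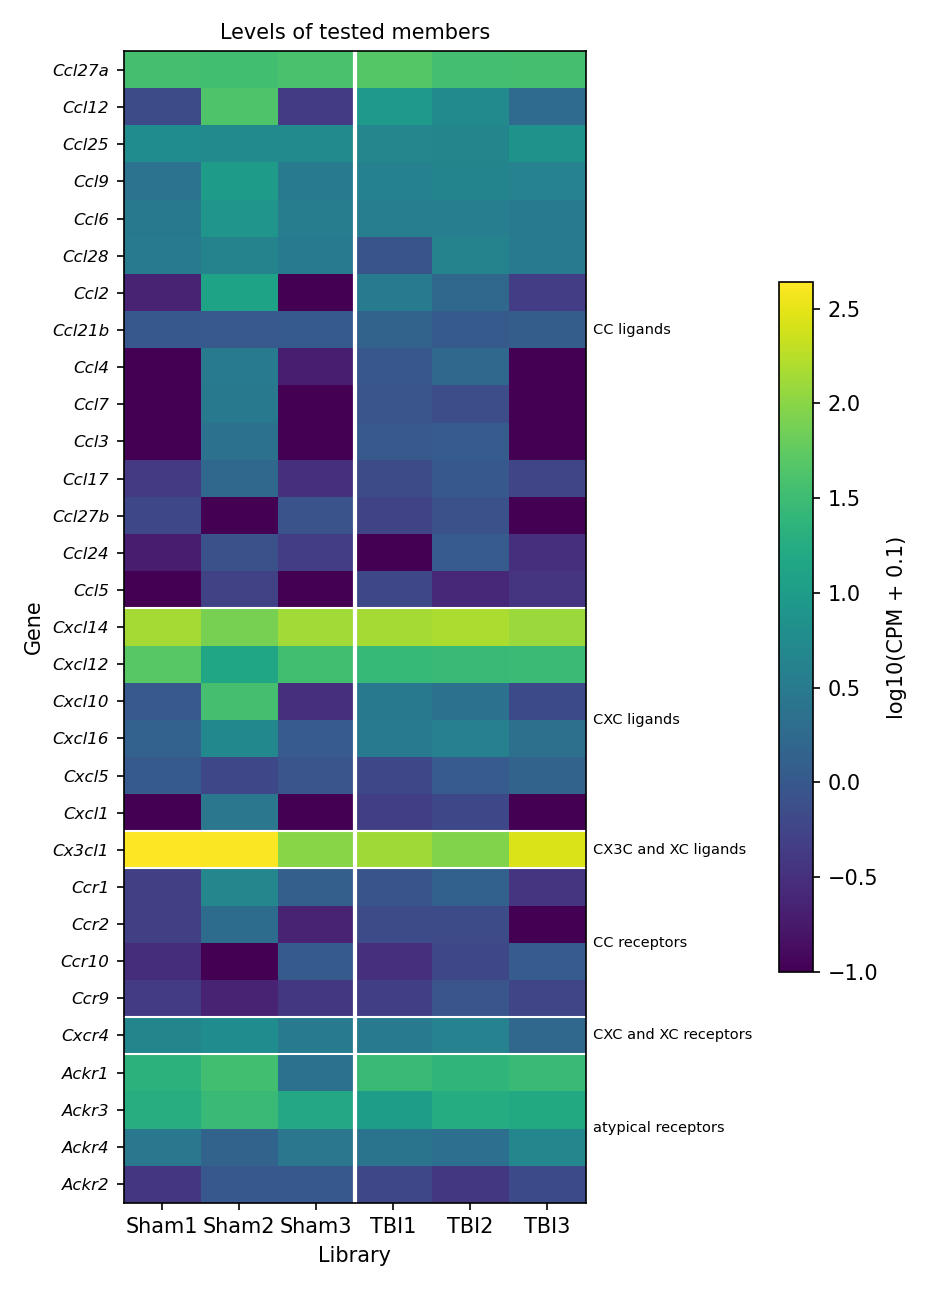
Levels of 31 of the tested chemokine and receptor genes (rows, grouped by class) in the 6 libraries (columns), as log10 of CPM plus 0.1. Cx3cl1 and Cxcl14 are the highest rows, and Ccl12, Ccl2 and Cxcl10 are highest in Sham2.

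Ccl12, Ccl2 and Ccl7, CC ligands that attract monocytes, were highest in Sham2, which does not hold for Ccl8, a neighbour in the same run with its highest count in TBI1. Ccl12 (MCP-5, a ligand of Ccr2; ENSMUSG00000035352, chr11:82101845-82103400, GRCm38) had 24, 1755 and 13 counts in Sham1, Sham2 and Sham3 and 375, 166 and 64 counts in TBI1, TBI2 and TBI3. Sham2 was the highest library and the other 2 sham libraries the lowest, with all 3 TBI libraries between them. The group means were 14.9 ± 25.0 CPM (sham) and 5.41 ± 3.70 CPM (TBI; SD, n = 3 per group), and the log2 fold change was -1.46 (SE 1.66, edgeR adjusted p = 0.982). Ccl2 (MCP-1, the main monocyte attractant acting on Ccr2), which lies in the same run of genes, had 5, 510 and 0 counts in the sham libraries and 123, 49 and 13 in the TBI libraries, with the same order (log2 fold change -1.38, SE 1.87). Ccl7 (MCP-3, which also binds Ccr2) was at 0 in Sham1 and Sham3, at 116 counts in Sham2 and at 33, 20 and 0 counts in the TBI libraries (log2 fold change -0.998, SE 2.03). In these 3 genes Sham2 was 4.76, 4.22 and 3.58 times the highest TBI library on the CPM scale.

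The macrophage inflammatory protein genes (Ccl3, Ccl4, Ccl6 and Ccl9) were also highest in Sham2 and were chosen for description after their values were seen. Ccl3 and Ccl4, which attract macrophages and T cells, had 89 and 118 counts in Sham2 and 0 to 4 counts in Sham1 and Sham3. In the TBI libraries Ccl3 had 39, 33 and 0 counts and Ccl4 had 36, 48 and 0 counts, so TBI3 was at 0 for both. The log2 fold changes were -0.15 (SE 1.99) for Ccl3 and -0.35 (SE 1.85) for Ccl4. Ccl6 and Ccl9, which act on Ccr1 and are made by myeloid cells without injury too, had 96 counts or more in every library. Ccl6 had 115, 313 and 126 counts in sham and 145, 110 and 105 counts in TBI, and Ccl9 had 96, 401 and 116 (sham) and 160, 136 and 143 (TBI). For Ccl9 all 3 TBI libraries were above Sham1 and Sham3 and below Sham2, whereas for Ccl6 they were above Sham1 (2.84 CPM) and on both sides of Sham3 (3.28 CPM) at 3.55, 3.48 and 2.95 CPM. Ccl5 (RANTES, made by T cells, microglia and others) had 0, 17 and 0 counts in sham and 21, 5 and 9 counts in TBI (log2 fold change 1.12, SE 1.46, edgeR adjusted p = 0.982), and its groups overlapped through Sham2. Without Sham2 both remaining sham libraries were at 0 and below every TBI library, where 16.9% of all genes did not overlap. Ccl5 was then too low for edgeR, and DESeq2 gave an unadjusted p of 0.00367 and an adjusted p of 0.388.

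Among the CXC ligands of injury, Cxcl10, Cxcl1, Cxcl2, Cxcl3 and Cxcl16 were highest in Sham2. Cxcl10 (IP-10, an interferon-responsive attractant of T cells through Cxcr3; chr5:92346638-92348889, GRCm38) had 38, 1471 and 8 counts in the sham libraries and 115, 69 and 20 in the TBI libraries. Sham2 was 13.0 times the highest TBI library and 63.9 times the mean of Sham1 and Sham3 on the CPM scale. The group means were 12.6 ± 20.8 CPM (sham) and 1.85 ± 1.16 CPM (TBI; SD, n = 3 per group). The log2 fold change of -2.76 (SE 1.70, edgeR adjusted p = 0.982) was the largest in size of the 32 members. Cxcl1 (KC, a neutrophil attractant acting on Cxcr2; chr5:90891241-90893115) was at 0 in Sham1 and Sham3, at 109 counts in Sham2 and at 15, 16 and 0 counts in the TBI libraries (log2 fold change -1.63, SE 2.04). Its neighbours Cxcl2 and Cxcl3, also ligands of Cxcr2, were too low to be tested. Cxcl2 had 81 counts in Sham2, 23 and 4 in TBI1 and TBI2, and 0 elsewhere, and Cxcl3 had 69 counts in Sham2 and 0 in the other 5 libraries. Cxcl5, also of that cluster, had 39, 21 and 31 counts in sham and 21, 32 and 47 counts in TBI, with Sham2 among the lowest. Cxcl16 (a membrane-bound ligand of Cxcr6, chosen for description after its values were seen) had 52, 198 and 39 counts in sham and 125, 119 and 76 counts in TBI, so that all TBI libraries were above Sham1 and Sham3. Of the exonic bases of Cxcl16 18.3% overlap Zmynd15 on the other strand, and of those of Cxcl10 5.91% overlap Art3, so without a stated strand setting these counts are uncertain.

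**Figure D2:**
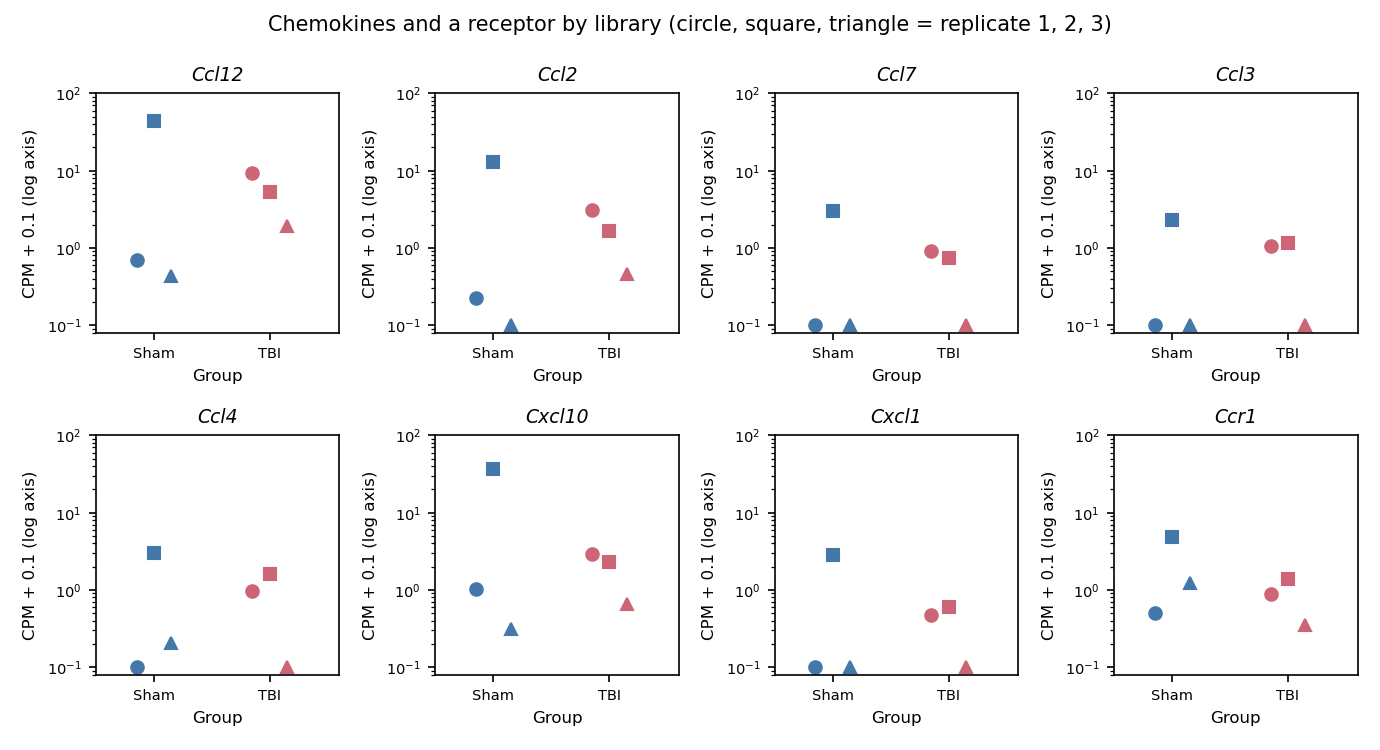
CPM plus 0.1 on a log axis of 7 injury-associated chemokines and the receptor Ccr1 in each library (circle, square and triangle are replicates 1, 2 and 3 of a group). The sham square (Sham2) is the highest point in all 8 panels, and no sham circle or triangle is above the highest TBI point.

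The promoters of 4 of these ligands are shown because their genes were highest together in Sham2, as RefSeq windows (GRCm38.p6) of 250 bases before to 50 bases after the transcription start, 5′ to 3′ on the gene's strand. Capitals mark a match, on either strand, to AATTTCC (the later part of a common form of the NF-kB site; Cxcl1, Cxcl2 and Cxcl10) or TATAAA (the TATA box; Ccl12). The windows are chr11:82101595-82101894 (+) for Ccl12, chr5:92348840-92349139 (−) for Cxcl10, chr5:90890995-90891294 (+) for Cxcl1 and chr5:90903649-90903948 (+) for Cxcl2.
Ccl12: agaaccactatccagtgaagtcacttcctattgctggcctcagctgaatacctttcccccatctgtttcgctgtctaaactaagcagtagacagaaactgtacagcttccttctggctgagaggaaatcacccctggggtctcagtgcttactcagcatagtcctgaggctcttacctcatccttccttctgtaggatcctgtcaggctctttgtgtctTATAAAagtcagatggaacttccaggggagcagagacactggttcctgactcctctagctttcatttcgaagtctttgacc
Cxcl10: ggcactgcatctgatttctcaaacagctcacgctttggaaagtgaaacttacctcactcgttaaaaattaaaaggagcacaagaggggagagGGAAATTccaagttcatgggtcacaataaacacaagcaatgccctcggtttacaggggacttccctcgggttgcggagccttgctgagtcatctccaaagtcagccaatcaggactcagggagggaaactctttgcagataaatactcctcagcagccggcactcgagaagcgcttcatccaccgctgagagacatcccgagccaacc
Cxcl1: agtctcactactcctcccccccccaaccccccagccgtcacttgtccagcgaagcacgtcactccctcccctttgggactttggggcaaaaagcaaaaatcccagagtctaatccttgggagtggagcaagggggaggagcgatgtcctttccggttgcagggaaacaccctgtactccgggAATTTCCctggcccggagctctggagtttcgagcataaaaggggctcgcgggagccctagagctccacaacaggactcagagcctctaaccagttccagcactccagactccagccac
Cxcl2: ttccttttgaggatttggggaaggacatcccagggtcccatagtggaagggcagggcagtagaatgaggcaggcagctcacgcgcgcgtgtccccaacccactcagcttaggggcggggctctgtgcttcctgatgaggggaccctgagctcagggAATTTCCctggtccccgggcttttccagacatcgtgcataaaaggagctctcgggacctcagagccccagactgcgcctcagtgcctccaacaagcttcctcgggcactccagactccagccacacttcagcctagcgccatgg
The match began 31 bases before the start in Ccl12, 68 in Cxcl1, 94 in Cxcl2 and 158 in Cxcl10, where it reads GGAAATT since it is on the other strand. Of the 59 members 45 had a window, and 52 windows were searched against 32851 windows of all genes. AATTTCC was found in 7 members (Ccl27b, Ccr3, Ccr6, Cxcl1, Cxcl10, Cxcl2 and Cxcl3) and in 3.69% of all windows, and TATAAA in 15 members and in 13.6% of all windows. These 2 motifs do not contain each other, and they were kept after several had been tried, so the counts are a description.

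Many of the ligand genes lie in runs, taken here as members less than 200000 bases apart, and were summed over their members. In 4 of the 9 runs every TBI library was above Sham1 and Sham3 and below Sham2, and in 5 this order did not hold. The 6 members of chr11:82035571-82305690 (Ccl2, Ccl7, Ccl11, Ccl12, Ccl8 and Ccl1) summed to 37, 2393 and 21 counts in the sham libraries and to 556, 235 and 89 in the TBI libraries. The 5 members of chr11:83525778-83664683 (Ccl5, Ccl9, Ccl6, Ccl3 and Ccl4) summed to 211, 938 and 246 counts in sham and 401, 332 and 257 counts in TBI. Both runs had that order. The 5 members of chr5:90759360-90905938 (Cxcl5, Cxcl3, Cxcl15, Cxcl1 and Cxcl2) summed to 39, 280 and 31 counts in sham and 59, 52 and 47 counts in TBI, in the same order, as did Cxcr1 and Cxcr2 on chromosome 1 at 0, 83 and 0 counts (sham) and 9, 5 and 9 counts (TBI). In the run of Cxcl9 and Cxcl10, with 43, 1471 and 8 counts in sham and 115, 73 and 20 in TBI, TBI3 was below Sham1. The run of Ccl27b, Ccl19 and Ccl21a was at 0 in Sham2, with 29 and 53 counts in the other sham libraries and 19 to 23 counts in TBI. The run of Ccl22, Cx3cl1 and Ccl17, the pair Ccl24 and Ccl26 and the receptor run on chromosome 9 lacked that order too. These sums were not tested.

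As a list, chosen with earlier results of these data known, the injury-induced chemokines had 11 tested genes. Of these, 0 were called and 0 had an unadjusted p under 0.05, against 0% and 4.29% of all genes. The mean was lower in TBI for 8 and higher for 3 (Ccl5, Cxcl5 and Cxcl16), against 48.6% of all genes lower, with a median log2 fold change of -0.35. Sham2 was the highest library for 9 of the 11, against 23.7% of all genes. The list summed to 6.59, 126 and 5.94 CPM in the sham libraries and to 27.5, 22.9 and 11.0 CPM in the TBI libraries, so every TBI library was above Sham1 and Sham3 and below Sham2.

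Without Sham2, the means of Ccl12, Ccl2, Ccl3, Ccl7, Cxcl1 and Cxcl10 were higher in TBI. In the edgeR fit on the other 5 libraries 33 members were tested and 0 were called, where 0% of 19298 genes were called. The mean was higher in TBI for 22 members and lower for 11, against 54.0% of all genes higher, and the median log2 fold change of the members was 0.23. An unadjusted p under 0.05 was reached by 5 of the 33, against 3.39% of all genes. These were Ccl12 (log2 fold change 3.53, SE 0.81), Ccl2 (4.64, SE 1.44), Ccl3, Cxcl16 (1.37, SE 0.39) and, lower in TBI, Cxcl12 (-0.54, SE 0.18), with an edgeR adjusted p of 0.997 for all. Ccl3, Ccl7 and Cxcl1 were at 0 in both remaining sham libraries. TBI3 was at 0 for each of them too, and no bound on their fold is given, since low counts in these data piled up at the value 4. The groups did not overlap for 9 of the 33, against 20.4% of all genes, and 8 of the 9 were higher in TBI, against 9.95% of all genes (Ccl12, Ccl2, Ccl9, Ccl17, Cxcl16, Ackr1, Ccr9 and Ccl21b).

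DESeq2 with its defaults, run without Sham2 after the data had been seen, called 2 members, Ccl12 (log2 fold change 3.53, DESeq2 adjusted p = 0.00157) and Ccl2 (4.71, DESeq2 adjusted p = 0.0916). It called 0.224% of 27647 genes in that comparison. At an unadjusted p under 0.05 it had 10 of 52 members (Ccl12, Ccl2, Ccl3, Ccl5, Ccl7, Ccr7, Cxcl1, Cxcl12, Cxcl16 and Cxcr2), 9 of them higher in TBI, against 3.86% of all genes. Of these, Ccl3, Ccl5, Ccl7, Ccr7, Cxcl1 and Cxcr2 were at 0 in both remaining sham libraries. They could only come out higher in TBI, so their direction is no result. Without Sham2 and without TBI1, also run after the data had been seen, edgeR called 0 of 28 members, where 0.0159% of all genes were called, and 3 had an unadjusted p under 0.05 (Ccl12, Ccl2 and Cxcl16), against 5.02% of all genes. Ccl12 then had a log2 fold change of 2.90 (SE 0.68) and Ccl2 of 3.86 (SE 1.41), with an edgeR adjusted p of 0.853 for both.

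**Figure D3:**
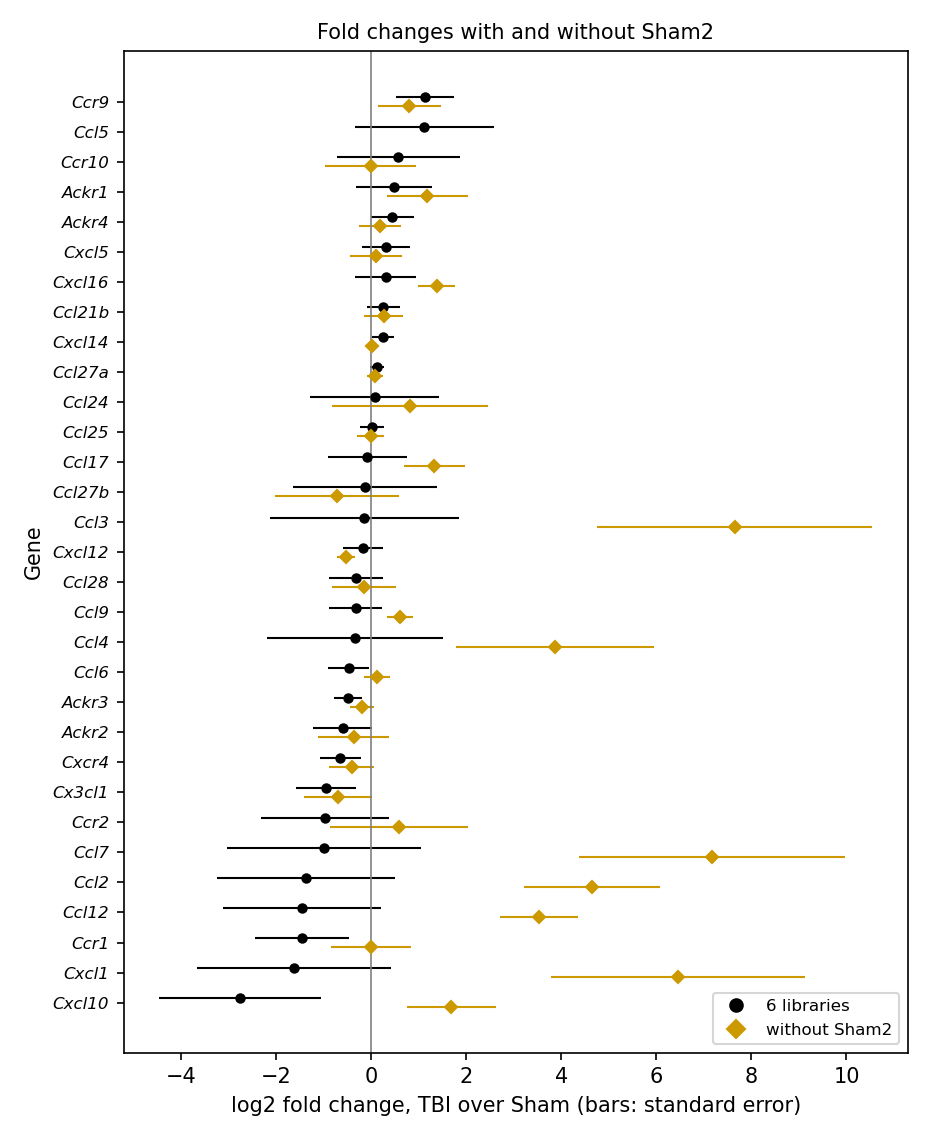
Log2 fold change (TBI over sham, bars are standard errors) of 31 of the tested members with all 6 libraries (black) and without Sham2 (yellow). Ccl12 moves from -1.46 to 3.53 and Ccl2 from -1.38 to 4.64, whereas Ccl27a and Cxcl14 stay near 0, and the yellow values of Ccl3, Ccl7 and Cxcl1, at 0 in both remaining sham libraries, depend on the fit's prior count.

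Summed neutrophil markers were also highest in Sham2, whereas the order of the libraries for summed monocyte markers depended on the matrix genes Fn1 and Vcan. The 10 neutrophil markers, of which 4 were tested and 0 called, summed to 2.10, 17.8 and 5.91 CPM in the sham libraries and 2.67, 10.2 and 3.43 CPM in TBI. S100a8, which is abundant in neutrophils, had 16, 268 and 99 counts in sham and 25, 140 and 45 counts in TBI. Without S100a8 and S100a9 the other 8 summed to 0.716, 3.71 and 1.15 CPM in sham and 0.490, 2.69 and 0.899 CPM in TBI. Sham2 was highest again, although Mpo, Ngp and Camp were highest in TBI2. The defining markers Ly6g and Elane were at 0 in 5 of 6 libraries each, with the counts of Ly6g in Sham2 and those of Elane in Sham3. The 8 monocyte markers (7 tested, 0 called) summed to 48.5, 117 and 55.0 CPM in sham and 64.9, 70.3 and 56.2 CPM in TBI. Of the 117 CPM in Sham2, Fn1, which other cells express too, made up 91.3 CPM, and the other 7 summed to 20.2, 26.0 and 16.6 CPM in sham and 29.7, 23.6 and 20.9 CPM in TBI, with TBI1 highest through Vcan. The 6 without Fn1 and Vcan summed to 0.988, 7.88 and 2.06 CPM in sham and 2.16, 6.00 and 1.83 CPM in TBI, with Sham2 highest again, although Plac8 and Ly6c2 were highest in TBI2. Gfap was highest in Sham2, at 4055 CPM against 541 to 1478 CPM in the other libraries. Of the 7 astrocyte markers (7 tested, 0 called) Sham2 was highest for 3, and it was the lowest library for Gja1, Slc1a2 and Slc1a3, at 99.2, 2013 and 599 CPM. The 10 microglia markers (10 tested, 0 called) summed to 513, 602 and 463 CPM in sham and 912, 578 and 439 CPM in TBI, with TBI1 highest and Sham2 the highest library for 0 of the 10. Of the 8 T and NK cell markers 1 was tested (Cd4, at 2120 counts in TBI1 and 4 to 28 in the others), and Nkg7 was at 0 in all libraries. The B cell markers (5 listed) summed to 0.519 to 1.43 CPM in sham and 0.857 to 1.55 CPM in TBI, and the hemoglobin and red cell markers (5 listed) to 126 to 416 CPM in sham and 117 to 601 CPM in TBI, with 0 called in either. The part of these cell markers in the chemokine values was not tested.

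**Figure D4:**
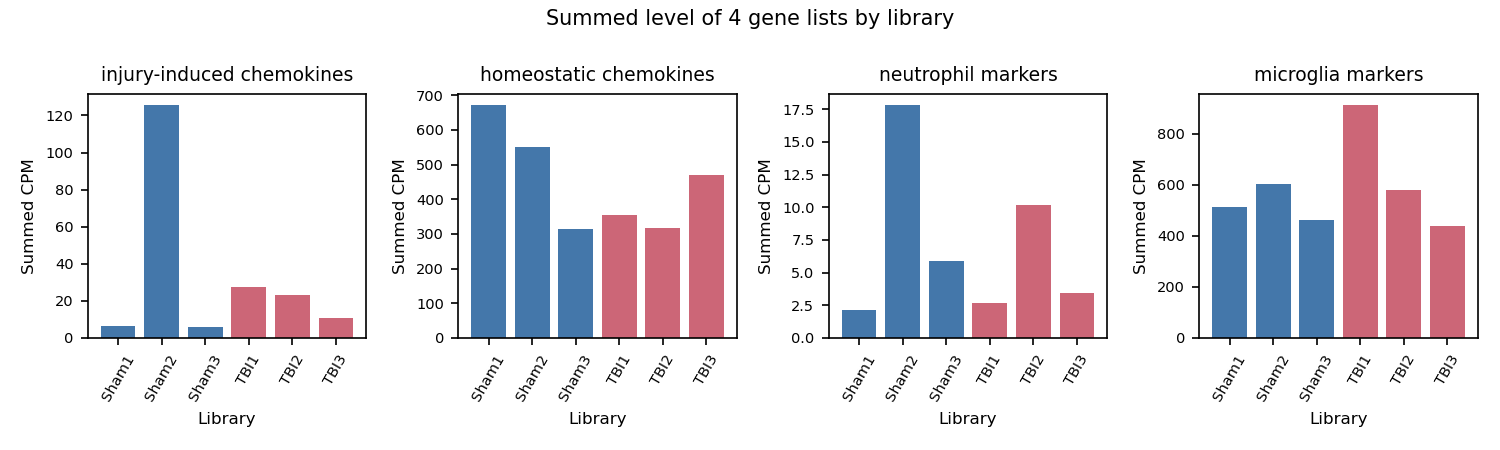
Summed CPM of 4 gene lists (injury-induced chemokines, homeostatic chemokines, neutrophil markers and microglia markers) in each library, 1 bar per library and each axis starting at 0. Sham2 is highest for the injury-induced chemokines (126 CPM) and the neutrophil markers (17.8 CPM), Sham1 for the homeostatic chemokines (671 CPM) and TBI1 for the microglia markers (912 CPM).

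The receptors Ccr1, Ccr2 and Cxcr2 were highest in Sham2 as well, Ccr1 and Ccr2 were not called, and Cxcr2 was too low to be tested. Ccr1 (a receptor of Ccl3, Ccl5, Ccl6 and Ccl9 on myeloid cells) had 16, 192 and 44 counts in sham and 32, 40 and 9 counts in TBI (log2 fold change -1.46, SE 0.98). Without Sham2 the log2 fold change of Ccr1 was -0.0090. Ccr2, which marks inflammatory monocytes, had 16, 73 and 5 counts in sham and 24, 19 and 0 counts in TBI (log2 fold change -0.98, SE 1.35, and 0.58, SE 1.46, without Sham2), and Cxcr2, the neutrophil receptor of Cxcl1 and Cxcl2, had 80 counts in Sham2, 0 in the other sham libraries and 4 to 9 in TBI. Ccl2, Ccl7 and Ccl12, which bind Ccr2, and Cxcl1 and Cxcl2, which bind Cxcr2, were highest in the same library. Sham2 was the highest library for 17 of the 32 tested members, so a shared peak does not single out these pairs. In other pairs the receptor lacked that peak. Cxcr3, the receptor of Cxcl10, was highest in Sham3, and Cxcr6, the receptor of Cxcl16, had at most 4 counts in any library. Ccr4, the receptor of Ccl17 and Ccl22, was at 0 in Sham2.

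Lymphocyte receptors were near the limit of detection. Ccr7 had 0, 12 and 0 counts in sham and 9, 21 and 4 counts in TBI, and Cxcr3, the receptor of Cxcl10, had 0, 9 and 16 in sham and 0 in all TBI libraries. Ccr6 was at 37 counts in TBI1 and at 0 in the other 5 libraries, and Cxcr5 ranged from 0 to 20 counts in sham and 2 to 8 in TBI. Ccr9 (the receptor of Ccl25, on gut-homing T cells) had 14, 5 and 11 counts in sham and 15, 26 and 17 counts in TBI. It was 1 of 2 tested members whose groups did not overlap in CPM, against 10.2% of all genes (4.77% with TBI higher and 5.45% with TBI lower), with a log2 fold change of 1.12 (SE 0.62, edgeR adjusted p = 0.982). The other was Ccl21b, with 37, 38 and 37 counts in sham and 54, 31 and 38 counts in TBI, and with 0.941 ± 0.0255 CPM (sham) and 1.12 ± 0.178 CPM (TBI; SD, n = 3 per group). Of the exonic bases of Ccr9, 18.8% overlap AC165425.1 on the other strand, and Ccl21b has near-identical copies, so both counts are uncertain.

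The most abundant members were chemokines that brain cells make without injury. Per kilobase of merged exons and averaged over the 6 libraries, Cxcl14 was at 70.4 CPM and Cx3cl1 at 61.0 CPM. Ccl12, at 18.9 CPM per kilobase, came next through Sham2, followed by Ackr1 at 16.5, Ccl27a at 16.2, Ackr3 at 5.31, Cxcl12 at 3.71 and Cxcl10 at 3.21. The value of Cxcl10 rested on Sham2 too, at 36.7 CPM there against 0.208 to 2.82 CPM in the other libraries. The order differed by group, with Cx3cl1 first in sham (80.5 against 64.5 CPM per kilobase for Cxcl14) and Cxcl14 first in TBI (76.3 against 41.6 for Cx3cl1), where Ccl12 at 10.1 CPM per kilobase was below Ackr1 at 19.2 and Ccl27a at 16.8. Cx3cl1 made up 59.0%, 52.3% and 27.1% of the members' summed CPM in sham and 29.6%, 21.8% and 49.6% in TBI, and Cxcl14 made up 9.78% to 38.3%. Neighbours in this order, such as Cxcl14 and Cx3cl1 or Ackr1 and Ccl27a, overlapped across libraries. A total of 17 members had 10 or more counts in every library.

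Cx3cl1 (fractalkine, a neuronal membrane chemokine that signals to microglia through Cx3cr1; chr8:94772009-94782427, GRCm38) had 17630, 16693 and 3741 counts in sham and 5407, 2801 and 9585 counts in TBI. Sham3 lay among the TBI libraries, and Sham1 and Sham2 were above all of them. The means were 316 ± 190 CPM (sham) and 163 ± 94.3 CPM (TBI; SD, n = 3 per group), and the log2 fold change was -0.95 (SE 0.63, edgeR adjusted p = 0.982). Without Sham3 the log2 fold change was -1.39 (unadjusted p = 0.0254 and adjusted p = 0.937 in edgeR). Cx3cl1 was then the 1 member of 37 at an unadjusted p under 0.05, against 4.52% of all genes. It was -0.64 without Sham1, -0.71 without Sham2 and -1.52 without TBI3, where the unadjusted p was 0.0647 in edgeR. Cx3cr1, its receptor and a microglial gene that the naming rule leaves out, had 830, 1668 and 429 counts in sham and 1546, 1513 and 1109 counts in TBI (log2 fold change 0.67, edgeR unadjusted p = 0.187). The ligand had the lower mean and the receptor the higher mean in TBI, and neither was called. Of the 8 hippocampal neuron markers 7 had a lower mean in TBI, with 0 called and 1 at an unadjusted p under 0.05 (Grik4), against 4.29% of all genes, followed by Fibcd1 (log2 fold change -1.36, edgeR unadjusted p = 0.0504) and Prox1 (-0.85, edgeR unadjusted p = 0.0714). These 3 were lower in every TBI library than in every sham library, against 5.45% of all genes, and lowest in TBI1, and the part of neuron content in the values of Cx3cl1 was not tested.

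Cxcl14 (a chemokine made by some interneurons, among other cells) had 141, 77.8 and 134 CPM in sham and 141, 155 and 122 CPM in TBI (log2 fold change 0.24, SE 0.24). Sham2 was the lowest library, and the others lay within 122 to 155 CPM, and without Sham2 the log2 fold change was 0.015 (SE 0.14). Cxcl12 (SDF-1, which retains progenitors and acts through Cxcr4) had 48.6, 13.8 and 34.1 CPM in sham and 27.2, 28.6 and 29.7 CPM in TBI. The TBI libraries were close together and inside the sham range, with Sham2 the lowest (log2 fold change -0.17, SE 0.41, edgeR adjusted p = 0.985). Without Sham2 both remaining sham libraries were above all TBI libraries, with a log2 fold change of -0.54 (SE 0.18, edgeR adjusted p = 0.997), where 20.4% of all genes did not overlap. Without Sham1 the direction turned, to 0.26. The 7 choroid plexus markers, from a tissue attached to the hippocampus, summed to 2028, 53.3 and 2076 CPM in sham and 241, 2359 and 259 CPM in TBI, so Sham2 was the lowest library there too, and the part of that tissue in the values of Cxcl12 was not tested.

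Ccl27a (best known as a chemokine of skin) varied little between libraries, at 37.0, 34.9 and 38.8 CPM in sham and 47.5, 35.5 and 36.9 CPM in TBI (log2 fold change 0.11, SE 0.15, edgeR adjusted p = 0.982). Its groups overlapped, and TBI1 was above the other 5 libraries. Its count is uncertain, since further annotated copies of it exist. Ccl25 (an attractant of thymocytes and gut T cells) had 234, 214 and 209 counts in sham and 196, 145 and 259 counts in TBI, with a log2 fold change of 0.0092 (SE 0.25). For these genes and Cxcl14 the standard error of the log2 fold change reached at most 0.25 (rounded), whereas it was 1.66 or more for Ccl12, Ccl2, Ccl7, Cxcl1 and Cxcl10. The homeostatic chemokines as a list had 6 tested genes, 3 higher and 3 lower in TBI and 0 called, with a median log2 fold change of -0.082, and summed to 314 to 671 CPM in sham and 316 to 469 CPM in TBI.

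**Figure D5:**
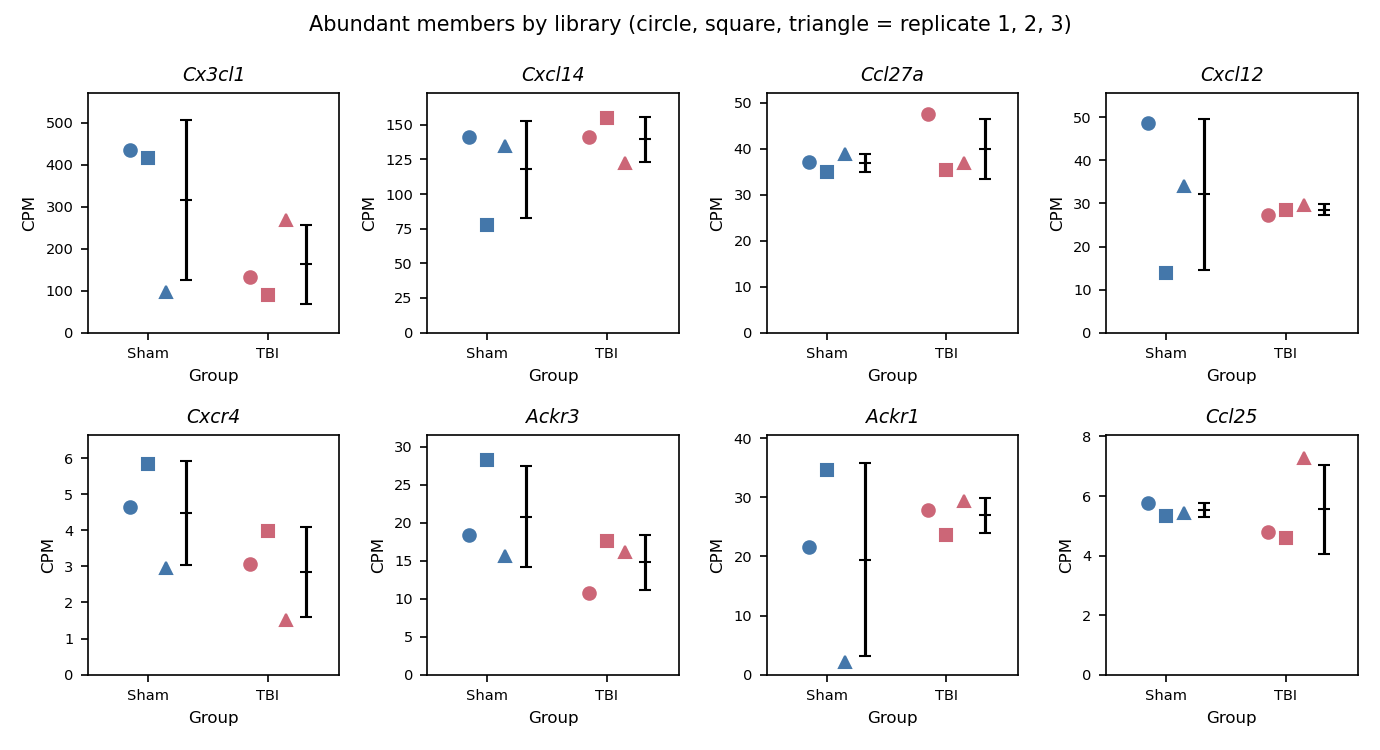
CPM of 8 abundant or steadily expressed members by library (circle, square and triangle are replicates 1, 2 and 3, with the group mean and SD as bars at the right). Ccl27a and Ccl25 have narrow sham bars, Cx3cl1 and Ackr1 have sham bars as wide as the difference between the groups or wider, and Sham2 is the lowest point for Cxcl14 and Cxcl12.

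The Cxcl12 receptors were not called, and their lower means in TBI rested in part on Sham2. Cxcr4 had 4.64, 5.83 and 2.97 CPM in sham and 3.06, 3.98 and 1.52 CPM in TBI (log2 fold change -0.65, SE 0.43), and is described here although it was chosen after its values were seen. Ackr3 (CXCR7, which binds and clears Cxcl12) had 18.4, 28.3 and 15.7 CPM in sham and 10.7, 17.5 and 16.1 CPM in TBI (log2 fold change -0.49, SE 0.29). In both genes Sham2 was the highest and Sham3 the lowest sham library, and the groups overlapped through Sham3. The edgeR adjusted p was 0.982 for each. Without Sham2 the log2 fold changes were -0.42 (SE 0.48) for Cxcr4 and -0.20 (SE 0.25) for Ackr3, and that of Ackr3 was -0.016 (SE 0.18) without Sham2 and TBI1.

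Among the other atypical receptors, Ackr1 (DARC, which carries chemokines across venular endothelium) had 21.6, 34.6 and 2.16 CPM in sham and 27.8, 23.7 and 29.3 CPM in TBI. Sham3 was far below the other 5 libraries, with 83 counts against 750 to 1389. The means were 19.5 ± 16.3 CPM (sham) and 27.0 ± 2.92 CPM (TBI; SD, n = 3 per group), with a log2 fold change of 0.47 (SE 0.80, edgeR adjusted p = 0.984) that became -0.065 without Sham3 and 1.18 without Sham2. Of its 1405 exonic bases 361 are shared with Cadm3 on the same strand, a neuronal adhesion gene at 283 to 423 CPM in the 6 libraries, so part of its count is uncertain. The 7 endothelial markers summed to 130, 174 and 164 CPM in sham and 163, 153 and 137 CPM in TBI, and the part of vessel content in the values of Ackr1 was not tested. Ackr2 and Ackr4, which clear inflammatory and homeostatic CC ligands, had 11 to 36 and 54 to 111 counts in sham and 9 to 21 and 65 to 170 counts in TBI. Their log2 fold changes were -0.60 (SE 0.62) and 0.44 (SE 0.46).

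The members that remain were low or steady. Ccl17 and Ccl22, ligands of Ccr4, had 13, 64 and 8 and 0, 68 and 4 counts in sham and 25, 29 and 17 and 8, 24 and 0 counts in TBI, again with Sham2 highest. Ccl28, a mucosal chemokine, had 114 to 164 counts in sham and 32, 131 and 112 counts in TBI. Ccl24 ranged from 4 to 28 counts in sham and 0 to 32 in TBI, Ccl8 from 4 to 8 in sham and 0 to 25 in TBI, Ccl27b from 0 to 29 in sham and 0 to 22 in TBI, and Ccr10 from 0 to 38 in sham and 9 to 37 in TBI. Ccl19 ranged from 0 to 20 counts in sham and 0 to 18 in TBI, and, like Ccl21b and Ccl27b, has further annotated copies that were not analysed here. Members under 10 counts in all libraries, beside the 5 at 0, were Ccl11, Ccl20, Ccl21a, Ccr3, Ccr4, Cxcl9, Cxcl13, Cxcl17, Cxcr1, Cxcr6, Xcl1 and Xcr1. Each of these groups of values overlapped, apart from Ccl11, which had 4 counts in each sham library and 0 in each TBI library.

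Downstream of the receptors, the 30 genes of G proteins, arrestins, receptor kinases, RGS proteins and migration effectors were all tested and 0 were called, where 0% of all genes were called. The mean was higher in TBI for 19 and lower for 11, against 48.6% of all genes lower, with a median log2 fold change of 0.084. Elmo1, a partner of Dock proteins in Rac activation, was the only one at an unadjusted p under 0.05 in edgeR, against 4.29% of all genes. It had 2002, 1768 and 2983 counts in sham and 5113, 2255 and 4092 counts in TBI (log2 fold change 0.86), and its groups overlapped. The next in order of p were Gng2, a G protein gamma subunit (log2 fold change -0.61), and Grk5, a receptor kinase (0.46). Of the 30, 2 did not overlap, Gnai2 higher and Gng2 lower in TBI, against 10.2% of all genes. Of 8 related genes outside the naming rule 7 were tested and 0 called. Cklf, a chemokine-like factor, had 66, 84 and 59 counts in sham and 113, 123 and 99 counts in TBI (log2 fold change 0.84, edgeR unadjusted p = 0.0277), with every TBI library above every sham library. In Ccrl2, an atypical receptor-like gene, every TBI library (0.379 to 0.882 CPM) was below every sham library (0.886 to 1.09 CPM), so 2 of the 7 did not overlap, in opposite directions, against 10.2% of all genes. Cmtm3, of the chemokine-like factor family, had a log2 fold change of 0.52 (edgeR unadjusted p = 0.169).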

How the data were processed

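Hippocampal RNA of 3 sham and 3 TBI mice was sequenced, and groups were taken from the sample labels. The authors used FastQC for read quality, HISAT2 for alignment to GRCm38 and StringTie for quantification, per the labels and methods. They deposited expected counts (estimated counts, as whole numbers) per gene, without normalization. Tool versions for these steps, strandedness and the annotation are not given in the sources used here. Low values piled up at 4 (the value 4 occurred 5109 times, 3 occurred 2325 times and 5 occurred 3577 times), so the counts were not taken to give a counting error. Library totals ranged from 31630936 to 41771872.

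Of 52550 genes, 52403 were matched to a symbol in GENCODE vM21 (GRCm38), of which 21819 were protein coding. Counts were used as deposited, filtered with filterByExpr, scaled by TMM (factors 0.970 to 1.02) and tested in R 4.3.3 with edgeR 4.0.16 (quasi-likelihood test, all 6 libraries, no covariates, Benjamini-Hochberg over 18795 genes). DESeq2 1.42.0 was an alternative. CPM used TMM-scaled library sizes, and CPM per kilobase used merged exon lengths. Scripts were tested on simulated data. Each sample is 1 mouse. The members and lists were chosen with earlier results of these data known. Values were given by library for the 10 tested members with the highest mean CPM, the 10 with the largest absolute log2 fold change and any at an unadjusted p under 0.05. The values of 1 member are not reported here. Untested members with 10 or more counts were given by range, and genes of other lists when called or among the 3 smallest p of their list, except that most cell marker lists were given by their sums. Other genes described, among them Ccl3, Ccl4, Ccl6, Ccl9, Cxcl16, Cxcr4, Cx3cr1, Gfap and the cell markers, were chosen after their values were seen. Alternatives were 3 other scalings, 2 other filters, 2 DESeq2 fits, robust dispersions, protein-coding genes only, counts divided by 4, an adjusted p under 0.05, no fold threshold, each library left out and the replicate number as a block. Same-numbered sham and TBI libraries did not deviate together (r = -0.139, -0.0803 and 0.223 for numbers 1, 2 and 3), so the numbers were not taken to pair them. DESeq2 without Sham2, and edgeR without Sham2 and TBI1, were added after seeing the data.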

Additional observations from a re-analysis of the deposited data

How the results depend on the processing

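The count of 0 members called held in every edgeR setting and in both DESeq2 fits on 6 libraries, and only DESeq2 without Sham2 called any (2). Members at an unadjusted p under 0.05 numbered 0, apart from the settings that follow, against 4.29% of all genes in the main fit. They were 2 of 54 (Ccl11 and Cxcr3) with a filter of 1 count in any library, against 3.48% of all genes. DESeq2's defaults gave 1 of 54 (Cxcl3), against 4.08%, and 10 of 52 without Sham2, against 3.86%. Without Sham2 and TBI1 edgeR had 3 of 28, against 5.02%. With a library left out they ranged from 0 to 5, against 2.49% to 5.82% of all genes, with 5 of 33 without Sham2 and 1 of 37 without Sham3. Members whose groups did not overlap numbered 2 of 32, apart from the settings that follow, against 10.2% of all genes in the main fit. They were 1 of 17 with a filter of 10 counts in every library and 0 of 18 with counts divided by 4 (10.4% of all genes in each). A filter of 1 count in any library gave 3 of 54 (8.13%), and DESeq2's defaults 3 of 54 (8.18%). Without Sham2 DESeq2 had 13 of 52 (16.9%), and without Sham2 and TBI1 edgeR had 12 of 28 (37.1%). With a library left out they were 3 to 9, against 17.5% to 22.7% of all genes. The median log2 fold change ranged from -0.57 to 0.23 with a library left out. It was 0.17 with the replicate number as a block (17 members higher and 15 lower in TBI). Without Sham2 and TBI1 it was 0.15 (18 higher and 10 lower). Scaling, filtering, robust dispersions, protein-coding genes only, counts divided by 4 and both DESeq2 fits on 6 libraries turned the direction of 0 members.

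With the replicate number as a block, 0 members were called and 0 had an unadjusted p under 0.05, and the samples share only a number. The log2 fold change turned to 1.40 for Ccl12, 0.41 for Ccl17, 1.93 for Ccl2, -0.68 for Ccl24, -0.023 for Ccl25, 1.57 for Ccl3, 0.31 for Ccl4, 0.88 for Ccl7 and 0.30 for Cxcl1. With DESeq2 without Sham2 it turned to 3.53 for Ccl12, 1.32 for Ccl17, 4.71 for Ccl2, -0.025 for Ccl25, 7.15 for Ccl3, 3.94 for Ccl4, 0.11 for Ccl6, 6.68 for Ccl7, 0.59 for Ccl9, -0.024 for Ccr10, 0.58 for Ccr2, 5.95 for Cxcl1 and 1.68 for Cxcl10. Without Sham2 and TBI1 it turned to 2.90 for Ccl12, 1.38 for Ccl17, 3.86 for Ccl2, -0.069 for Ccl27a, 0.28 for Ccl28, 0.069 for Ccl6, 0.62 for Ccl9, 0.17 for Ccr2 and 1.24 for Cxcl10.

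With a library left out in turn, directions turned within these ranges: Ackr1 -0.065 to 1.18, Ackr4 -0.032 to 0.65, Ccl12 -2.08 to 3.53, Ccl17 -0.52 to 1.32, Ccl2 -2.16 to 4.64, Ccl24 -1.79 to 0.81, Ccl25 -0.24 to 0.12, Ccl27a -0.029 to 0.19, Ccl27b -0.89 to 0.56 (-0.84 with 1 library left out and -0.89 without Sham2 and TBI1), Ccl28 -0.78 to 0.12, Ccl3 -0.73 to 7.65, Ccl4 -1.18 to 3.87, Ccl6 -0.73 to 0.12, Ccl7 -1.62 to 7.18, Ccl9 -0.67 to 0.60, Ccr10 -0.14 to 2.52, Ccr2 -1.47 to 0.58, Cxcl1 -2.25 to 6.46, Cxcl10 -3.33 to 1.68, Cxcl12 -0.54 to 0.26, Cxcl16 -0.060 to 1.37 and Cxcl5 -0.017 to 0.61. Fitted values of Ccl3, Ccl7 and Cxcl1 without Sham2 rest on sham libraries at 0 and depend on the prior count. The cause of these turns was not tested. At this depth 27 members were too low to be tested.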
